A study of Mus musculus with 6 samples.

Results

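Levels of the genes that mark endothelial cells were compared between mouse embryonic endothelial eEnd2 cells expressing β1-WT-GFP and those expressing β1-K794Q-GFP, using 36 genes chosen by symbol from the 23420 symbols of the count table. The list holds 13 genes of surface or secreted proteins, 6 transcription factors of the ETS family, 5 factors that blood and endothelial cells share, the 3 SoxF factors, 4 genes known for their response to blood flow and 5 signalling genes. It was chosen with earlier results of these data known, so that its shares set beside those of all tested genes are descriptions and test nothing. All 36 were in the table, and 34 had enough counts to be tested, among 11608 tested genes. Of these 34 genes, 4 rose in β1-K794Q-GFP cells, against 3.48% of all tested genes, and 0 fell, against 1.71%, by a fold change and an unadjusted p in edgeR. The 4 were Cd93, a lectin-like receptor of the endothelial surface, and the transcription factors Ets1, Klf4 and Mef2c, each between 2.31-fold and 2.56-fold higher. The adjusted p was at most 0.05 for 0 of the 4 in edgeR, against 0.181% of all tested genes, and for all 4 in DESeq2, against 4.11%.

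Both groups came from the same mouse line, eEnd2, and both carried a human Integrin-β1A chimera with GFP inserted in its extracellular part behind K107. The chimera was stably expressed from a short human β-actin promoter next to a matrix attachment region of chicken lysozyme. In β1-WT-GFP cells its cytoplasmic tail was wildtype, and in β1-K794Q-GFP cells the lysine of the distal NPKY motif was replaced by glutamine, which mimics an acetylated lysine. GFP-positive cells were sorted, grown to confluence without further treatment, and total RNA of 3 cultures of each kind, named A, B and C, was sequenced once ribosomal RNA had been removed. A GFPlow and a GFPhigh population are mentioned in the labels, without saying which cultures belong to which. Each kind of cell was obtained by transfection and sorting, so that the mutation and any other difference between the sorted populations cannot be told apart.

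Endothelial cells are recognised by adhesion molecules and receptors at their junctions and luminal surface. Their genes are switched on and maintained largely by ETS factors, whose binding sites share the core GGAA, together with GATA, SoxF and bHLH factors that bind beside them. Laminar flow raises KLF factors through the kinase MEK5 and MEF2 proteins, and these in turn sustain nitric oxide synthase and restrain inflammation.

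The libraries held between 9589826 and 15287191 counts, and levels are given as normalized counts (CPM), scaled to the library total and by TMM factors. The values of a gene follow the order A, B, C, with β1-WT-GFP before β1-K794Q-GFP. A count of 0 allows a level of up to 3 counts, which corresponds to between 0.209 and 0.300 CPM and covers counting error only. In β1-WT-GFP cells, cultures A and B had 23 genes at least 2-fold apart, whereas culture C differed from them at 2478 and 2351 genes. Among β1-K794Q-GFP cultures, A and C differed at 796 genes and culture B differed from them at 1787 and 2359. These comparisons used log2(CPM + 1) over the 11608 tested genes. The endothelial label was checked on 8 genes outside the list (Cdh5, Kdr, Tek, Tie1, Flt1, Esam, Emcn and Vwf). Their summed level was between 4757 and 5817 CPM in β1-WT-GFP cultures and between 3821 and 8282 CPM in β1-K794Q-GFP cultures, although Vwf, which encodes von Willebrand factor, was at 0.262 to 2.40 CPM in all 6. Epithelial markers summed to at most 1.18 CPM and smooth muscle and pericyte markers to at most 3.69 CPM. Ptprc, the pan-leukocyte marker, had counts in 1 culture, at 0.278 CPM.

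**Figure D1:**
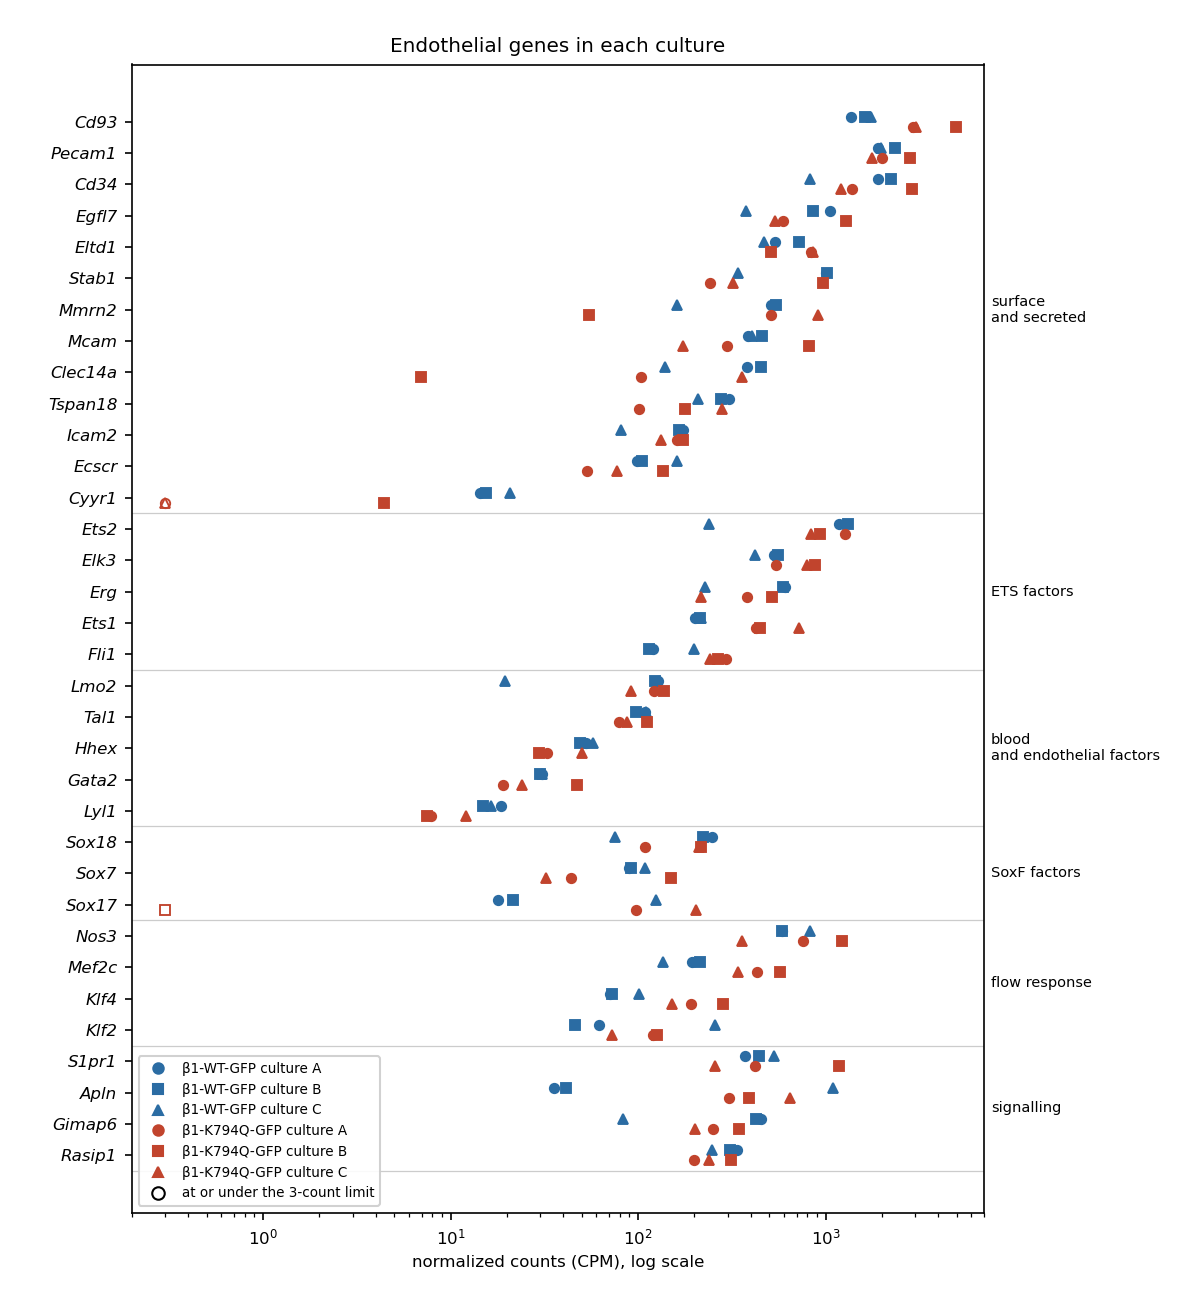
Normalized counts (CPM, log scale) of the 34 tested endothelial genes in each of 3 β1-WT-GFP cultures (blue) and 3 β1-K794Q-GFP cultures (red), grouped by role. The 3 red points lie to the right of the 3 blue points for Cd93, Ets1, Klf4, Mef2c and Fli1, and to the left for Lyl1 and Cyyr1.

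The question put to the list was which of its genes differed between the kinds of cell. A gene was counted as changed when the groups were 2-fold or more apart and the unadjusted p did not exceed 0.05 in edgeR's quasi-likelihood F-test. Besides the 4 genes past both thresholds, Fli1 and Lyl1 passed the test but not the fold. At an unadjusted p of at most 0.05 alone, 5 of the 34 were higher, against 6.08% of all genes, and 1 was lower, against 4.08%. After Benjamini-Hochberg adjustment over all tested genes, edgeR gave an adjusted p of at most 0.05 to 0 of the 34, against 0.181% of all genes. DESeq2, used as the alternative test, called the same 4 genes by fold change and p, all 4 of them higher, against 4% of all genes higher and 1.99% lower. It gave each an adjusted p of at most 0.05, which it gave to 4.11% of all genes. The median log2 fold change was 0.08 over the 34 genes and -0.02 over all tested genes, with 19 positive and 15 negative values in the list. All 3 β1-K794Q-GFP cultures lay above all 3 β1-WT-GFP cultures for 5 of the 34 genes, against 8.44% of all genes, and below them for 2, against 8.13%. For such genes the exact permutation test of 3 cultures against 3, two-sided, gives p = 0.1, the smallest value it can give. In RNA of whole cultures, fewer cells expressing a gene and less RNA per cell cannot be told apart.

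Among the surface and secreted proteins, only Cd93 of the 13 genes passed both thresholds. CD93 is a transmembrane C-type lectin-like receptor that takes part in endothelial adhesion and in the assembly of fibronectin matrix. Its gene lies on chromosome 2 (148436640 to 148443563, GRCm38). Cd93 had 1365, 1629 and 1738 CPM in β1-WT-GFP cells and 2910, 4944 and 3054 CPM in β1-K794Q-GFP cells. The groups did not overlap, and culture B was the highest of the β1-K794Q-GFP cultures. The means were 1577 ± 192 and 3636 ± 1135 CPM (SD, n = 3), a log2 fold change of 1.21 (SE 0.34) with an adjusted p of 0.269 in edgeR's quasi-likelihood test and 0.00346 in DESeq2. Without β1-K794Q-GFP culture B the log2 fold change was 0.92, under the 2-fold threshold. The 5 tested genes within 1 Mb of Cd93 had log2 fold changes between 0.09 and 0.61, and 0 of them passed both thresholds. Among them Nxt1 (0.61) and Gzf1 (0.54) had an unadjusted p of 0.044 and 0.022 in edgeR's quasi-likelihood test, without reaching the fold. Per kilobase of exon, Cd93 was in the second place of the 36 genes in β1-WT-GFP cells, at 236 CPM per kb behind Pecam1 at 333, and in the first place in β1-K794Q-GFP cells, at 545 against 353 for Pecam1.

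Clec14a encodes the close relative of CD93 among the endothelial C-type lectins, and Mmrn2 encodes multimerin-2, a matrix glycoprotein that binds both receptors. Clec14a, on chromosome 12, had 382, 453 and 139 CPM in β1-WT-GFP cells and 104, 6.99 and 357 CPM in β1-K794Q-GFP cells. The groups overlapped, and β1-K794Q-GFP culture B was 33.0-fold below the mean of A and C. Mmrn2, on chromosome 14, had 509, 541 and 161 CPM against 510, 54.8 and 911 CPM in the same order, again with β1-K794Q-GFP culture B the lowest, 12.9-fold below the mean of the other two. Cd93 was the highest in the culture in which both of these genes were lowest. The log2 fold changes were -1.06 (SE 1.17) for Clec14a and 0.29 (SE 0.94) for Mmrn2, each smaller than its standard error.

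Pecam1, the junctional adhesion molecule of endothelial cells, had 1902, 2341 and 1985 CPM in β1-WT-GFP cultures and 2011, 2812 and 1776 CPM in β1-K794Q-GFP cells. Its log2 fold change was 0.08 (SE 0.30), and its cultures stayed within 1.23-fold and 1.58-fold of each other. Cd34, which encodes a sialomucin, had 1896, 2222 and 830 CPM against 1389, 2879 and 1206 CPM. Its β1-WT-GFP culture C was 2.48-fold below the mean of A and B, and the groups overlapped. Icam2, an adhesion molecule that endothelial cells carry without stimulation, had 174, 165 and 81.5 CPM against 161, 173 and 133 CPM, a log2 fold change of 0.15 (SE 0.32). Pecam1 and Icam2 lie 266 kb apart on chromosome 11, and neither passed a threshold.

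Mcam, the adhesion molecule CD146, had 385, 459 and 405 CPM in β1-WT-GFP cultures and 297, 813 and 174 CPM in β1-K794Q-GFP cultures. The β1-WT-GFP values lay within the range of the other group, a log2 fold change of 0.04 (SE 0.55). Stab1, a scavenger receptor, had 1002, 1017 and 340 CPM against 242, 975 and 320 CPM, a log2 fold change of -0.62 (SE 0.66). Of the β1-K794Q-GFP cultures only B came near the 2 high β1-WT-GFP cultures, and without it Stab1 passed both thresholds at -1.47. Egfl7, a secreted factor whose gene also contains the endothelial microRNA miR-126, had 1050, 862 and 378 CPM against 595, 1289 and 540 CPM. Eltd1, an adhesion G protein-coupled receptor now named Adgrl4, had 539, 725 and 472 CPM against 835, 509 and 856 CPM, a log2 fold change of 0.34 (SE 0.30). The groups overlapped for both.

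Tspan18, a tetraspanin, had 305, 277 and 209 CPM against 101, 177 and 281 CPM, and Ecscr, a membrane protein of endothelial cells involved in their migration, had 98.8, 105 and 160 CPM against 53.4, 136 and 77.4 CPM. Their log2 fold changes were -0.50 (SE 0.39) and -0.45 (SE 0.39), with overlapping groups. Cyyr1, which encodes a small membrane protein rich in cysteine and tyrosine, was the least abundant tested gene of the list. It had 14.4, 15.4 and 20.7 CPM in the β1-WT-GFP cultures, and 4.43 CPM in β1-K794Q-GFP culture B. In the other two cultures of that group it had 0 counts. All β1-K794Q-GFP cultures lay below the β1-WT-GFP cultures, yet the log2 fold change of -3.51 (SE 1.54) did not pass the test (adjusted p = 0.521 in edgeR's quasi-likelihood test). It passed both thresholds without β1-K794Q-GFP culture B, without the filter on low counts and with the culture letter as a block.

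Among the ETS factors, Ets1 rose and the other 4 tested genes did not pass both thresholds. Ets1, a factor active in sprouting vessels, lies on chromosome 9 (32636221 to 32757820). It had 200, 214 and 217 CPM in β1-WT-GFP cells and 427, 450 and 722 CPM in β1-K794Q-GFP cells. The β1-WT-GFP cultures were within 1.08-fold of each other, and all 3 β1-K794Q-GFP cultures were above them. The means were 210 ± 8.72 and 533 ± 164 CPM (SD, n = 3), a log2 fold change of 1.34 (SE 0.26) with an adjusted p of 0.139 in edgeR's quasi-likelihood test, the smallest of the list, and 0.000261 in DESeq2. The call was kept with each of the 6 cultures left out.

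Fli1 is the neighbour of Ets1 on chromosome 9, with a gap of 93.4 kb and 0 tested genes between them. It encodes an ETS factor that holds the endothelial programme in mature vessels together with ERG. Fli1 had 120, 115 and 199 CPM in β1-WT-GFP cells and 296, 266 and 243 CPM in β1-K794Q-GFP cells. The groups did not overlap, with β1-WT-GFP culture C the nearest to the other group. The log2 fold change of 0.89 (SE 0.26) was under the 2-fold threshold (adjusted p = 0.296 in edgeR's quasi-likelihood test), and leaving out β1-WT-GFP culture C gave 1.20, past both thresholds. The only other tested gene within 1 Mb of this pair was Arhgap32, with a log2 fold change of 0.99 that did not pass the test.

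Erg and Ets2 form the corresponding pair on chromosome 16, 115 kb apart and likewise with 0 tested genes between them. Erg, the ETS factor most typical of endothelial cells, had 605, 595 and 228 CPM against 382, 517 and 215 CPM. In both groups culture C was the lowest, and the log2 fold change was -0.36 (SE 0.48). Ets2 had 1185, 1325 and 238 CPM against 1266, 938 and 834 CPM, so that β1-WT-GFP culture C alone was apart, 5.26-fold below the mean of A and B. Its log2 fold change was 0.15 (SE 0.61). Ets1 and Fli1 were thus higher in every β1-K794Q-GFP culture than in any β1-WT-GFP culture, and Erg and Ets2 overlapped. Whether the folds of the pairs differ was not tested. Elk3, an ETS factor of the ternary complex class that mostly represses, had 530, 558 and 420 CPM against 546, 877 and 792 CPM. Its log2 fold change was 0.56 (SE 0.26) with overlapping groups. Etv2, which starts the endothelial programme in the early embryo, had 1 count in each β1-WT-GFP culture and 0 counts in each β1-K794Q-GFP culture and was not tested.

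**Figure D2:**
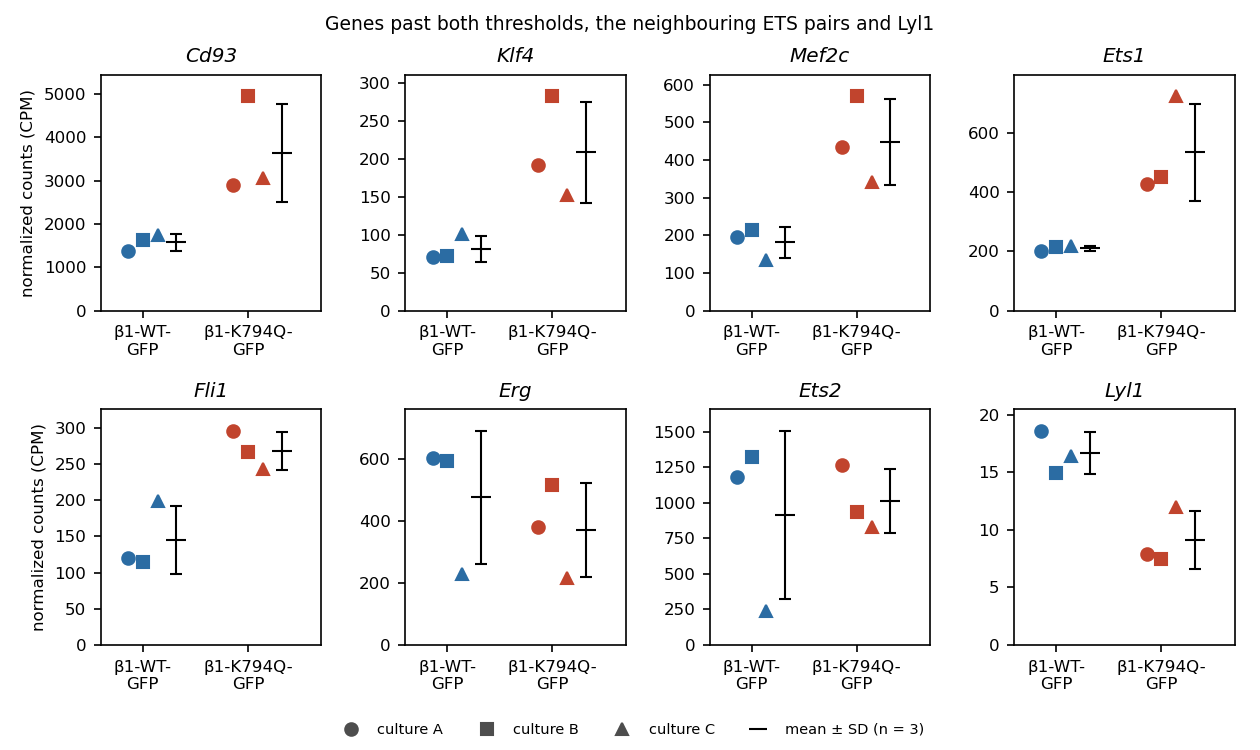
Normalized counts (CPM, linear axes from 0) of 8 genes in each culture, with black bars for the mean ± SD of 3 cultures. Cd93, Klf4, Mef2c, Ets1 and Fli1 are higher in every β1-K794Q-GFP culture than in any β1-WT-GFP culture, Lyl1 is lower, and Erg and Ets2 overlap, with β1-WT-GFP culture C at 228 and 238 CPM.

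Klf4 and Mef2c rose among the 4 flow-response genes, and Klf2 and Nos3 did not pass the test. KLF4 is a zinc-finger factor that laminar flow induces in endothelium, and MEF2C is a MADS-box factor acting above KLF2 and KLF4. Klf4, on chromosome 4 (55527143 to 55532466), had 71.0, 72.5 and 102 CPM in β1-WT-GFP cells and 192, 283 and 153 CPM in β1-K794Q-GFP cells. The groups did not overlap. The means were 81.7 ± 17.3 and 209 ± 66.8 CPM (SD, n = 3), a log2 fold change of 1.36 (SE 0.29) with an adjusted p of 0.161 in edgeR's quasi-likelihood test and 0.00308 in DESeq2. Mef2c, on chromosome 13 (83504034 to 83667080), had 194, 215 and 136 CPM against 433, 569 and 342 CPM. Here too the groups did not overlap, and in both of them culture C was the lowest and culture B the highest. The means were 182 ± 41.4 and 448 ± 114 CPM (SD, n = 3), a log2 fold change of 1.30 (SE 0.29) with an adjusted p of 0.169 in edgeR's quasi-likelihood test and 0.00205 in DESeq2. Both calls were kept with each culture left out. The tested genes within 1 Mb had log2 fold changes of -0.36 and -0.21 beside Klf4 and 0.23 for Tmem161b, the only one beside Mef2c.

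Klf2, a paralog of Klf4 with overlapping known targets, had 61.7, 46.0 and 258 CPM in β1-WT-GFP cells and 121, 126 and 72.7 CPM in β1-K794Q-GFP cultures. β1-WT-GFP culture C was the highest of all 6, 4.79-fold above the mean of A and B, so that the log2 fold change was -0.19 (SE 0.67) with it and 1.00 without it, just short of 2-fold. Nos3, the endothelial nitric oxide synthase, had 589, 586 and 826 CPM against 761, 1224 and 361 CPM. The 3 β1-WT-GFP values fell inside the range of the other group, a log2 fold change of 0.23 (SE 0.46).

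The 200 bases before the most upstream annotated start of Klf4 and of Mef2c are shown because both genes rose. Whether these cells use that start was not tested. The letters GGAAG, a form of the ETS core GGAA with G behind it, or CTTCC where it is on the other strand, are in capitals. Occurrences of GGAA without that G were not searched and stay in lower case. The sequences are RefSeq promoter windows of GRCm38.p6, read 5′ to 3′ on the strand of the gene, at chr4:55532476-55532675 (minus strand) and chr13:83503834-83504033 (plus strand).
Klf4: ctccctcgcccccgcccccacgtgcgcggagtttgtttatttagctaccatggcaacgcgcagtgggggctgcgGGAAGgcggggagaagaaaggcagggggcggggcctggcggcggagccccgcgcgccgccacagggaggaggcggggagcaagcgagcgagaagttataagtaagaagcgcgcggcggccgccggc
Mef2c: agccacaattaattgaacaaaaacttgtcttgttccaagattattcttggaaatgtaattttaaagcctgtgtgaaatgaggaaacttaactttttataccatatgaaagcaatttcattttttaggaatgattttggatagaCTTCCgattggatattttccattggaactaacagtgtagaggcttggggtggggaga
Each window held 1 match to GGAAG. RefSeq windows were found for 22 of the 36 genes, and Cd93, Ets1 and Fli1 were not among them. Searched over the 250 bases before the start and on both strands, GGAAG was in 21 of the 30 windows of these genes (70%) and in 64.1% of all 32851 windows. The core GATAA of GATA factors was in 20% against 22.6%, and the SOX core ACAAT in 23.3% against 27.7%. Matches of different cores can share a base at their ends. A match describes the letters and not a bound site.

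Among the factors that blood and endothelial cells share, 0 of the 5 genes passed both thresholds in edgeR or DESeq2, and only Lyl1 had an unadjusted p of at most 0.05. TAL1 and LYL1 are bHLH factors that bind DNA in a complex with the bridging protein LMO2 and with GATA2. Lyl1 had 18.6, 15.0 and 16.4 CPM in β1-WT-GFP cultures and 7.89, 7.48 and 12.0 CPM in β1-K794Q-GFP cultures, without overlap. Its log2 fold change was -0.87 (SE 0.27), short of 2-fold (adjusted p = 0.321 in edgeR's quasi-likelihood test), and without β1-K794Q-GFP culture C it was -1.11 and passed both thresholds. An exon of Lyl1 overlaps one of Nfix on the other strand. As the strand setting of the counting is not given in the sources used here, reads of that pair may not be told apart. The same holds for exons of Cd34, Sox17, Egfl7, Ecscr, Elk3, Nos3, Rasip1, Stab1 and Mcam, and for none of the 4 genes that rose.

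Tal1, the close relative of Lyl1, had 109, 97.6 and 111 CPM against 79.1, 111 and 87.6 CPM, a log2 fold change of -0.19 (SE 0.18). Lmo2 had 128, 123 and 19.4 CPM against 122, 137 and 91.9 CPM, and its β1-WT-GFP culture C was 6.47-fold below the mean of A and B. The remaining 5 cultures were within the range from 91.9 to 137 CPM, and the log2 fold change was 0.38 (SE 0.65). Gata2 had 30.6, 30.1 and 30.7 CPM in β1-WT-GFP cultures, the tightest values of the list at 1.02-fold, and 19.0, 47.0 and 24.1 CPM in β1-K794Q-GFP cultures, on both sides of them. Hhex, a homeobox factor of early endothelium, had 52.7, 49.0 and 57.6 CPM against 32.8, 29.6 and 50.0 CPM. Its log2 fold change was -0.50 (SE 0.24), and the groups overlapped through β1-K794Q-GFP culture C.

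Of the 3 SoxF factors, 0 passed both thresholds in edgeR or DESeq2, and edgeR gave 0 of them an unadjusted p under 0.05. Each varied widely between cultures. These HMG-box factors act in arterial and lymphatic specification and can stand in for each other. Sox17 had 17.9, 21.6 and 125 CPM in β1-WT-GFP cells and 97.5, 0.295 and 205 CPM in β1-K794Q-GFP cells. The value of β1-K794Q-GFP culture B rests on 3 counts, at the limit that a count of 0 allows. Sox7 had 89.7, 92.1 and 108 CPM against 44.1, 150 and 32.4 CPM, so that culture B was 3.91-fold above the mean of A and C. Without that culture Sox7 passed both thresholds at a log2 fold change of -1.33, and with it the value was -0.36 (SE 0.57). Sox18 had 247, 223 and 75.1 CPM against 109, 218 and 211 CPM, a log2 fold change of -0.02 (SE 0.49). The culture that was high for Sox7 was the one at the limit for Sox17.

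The signalling genes gave 0 calls among the 4 tested in edgeR and in DESeq2, with an unadjusted p of at most 0.05 for 0 of them in edgeR. Apln encodes apelin, a peptide ligand that tip cells secrete. It had 35.6, 41.2 and 1095 CPM in β1-WT-GFP cells and 305, 392 and 648 CPM in β1-K794Q-GFP cells. β1-WT-GFP culture C was 28.5-fold above the mean of A and B and higher than every β1-K794Q-GFP culture. The log2 fold change was 0.20 (SE 1.30) over all cultures, and leaving out β1-WT-GFP culture C gave 3.56, past both thresholds. S1pr1, the receptor for sphingosine-1-phosphate that steadies junctions, had 370, 442 and 534 CPM against 420, 1186 and 258 CPM, a log2 fold change of 0.47 (SE 0.57). Rasip1, an effector of Rap1 in lumen formation, had 337, 311 and 249 CPM against 199, 314 and 240 CPM, and Gimap6, a GTPase of the immune-associated class, had 452, 424 and 83.1 CPM against 250, 343 and 200 CPM. The groups overlapped for these 3 genes. Bmx, a Tec-family kinase, had 1 count in β1-WT-GFP culture C and 0 in the other 5 cultures and was not tested.

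**Figure D3:**
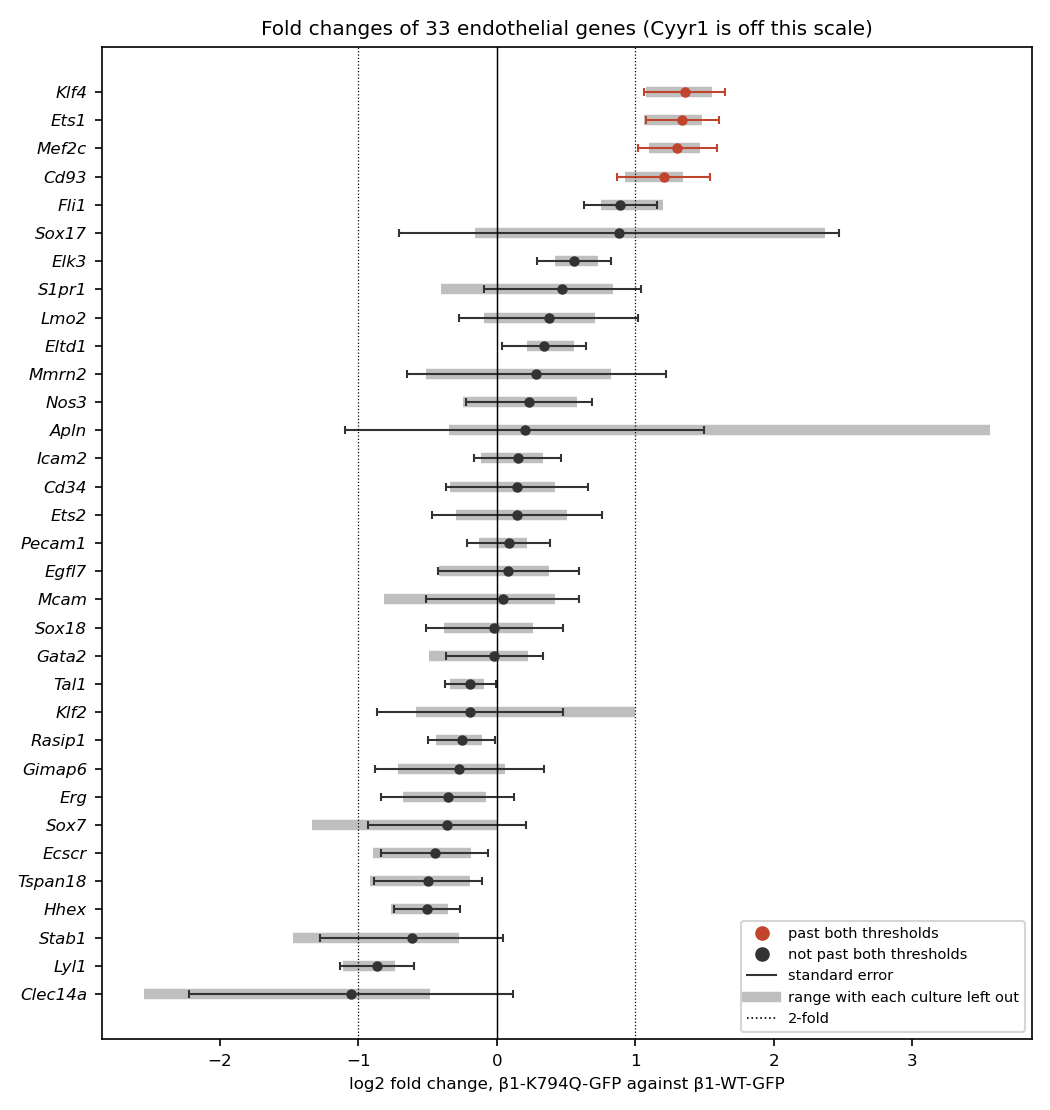
Log2 fold change between the groups, positive where β1-K794Q-GFP was higher, for 33 endothelial genes, with the standard error (thin line) and the range of the value when each of the 6 cultures is left out (grey bar). Cyyr1, at -3.51, is off the scale. The ranges of Klf4, Ets1, Mef2c and Cd93 stay above 0, as do those of Fli1, Elk3 and Eltd1, whereas that of Apln runs from -0.34 to 3.56.

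Several genes of the list differed widely between cultures of 1 kind. In β1-WT-GFP cells, 6 of the 34 genes (17.6%) were at least 4-fold apart between the highest and the lowest culture, against 9.38% of all tested genes. They were Apln, Ets2, Gimap6, Klf2, Lmo2 and Sox17. Cultures A and B of this group were 1.5-fold or more apart for 0 of the 34 genes, against 5.71% of all, so that the spread came from culture C. In culture C, 11 of the 34 genes (32.4%) were at least 2-fold below the mean of A and B, against 12.5% of all genes, and 3 (8.82%) were at least 2-fold above, against 12.2%. The 11 were Cd34, Clec14a, Egfl7, Erg, Ets2, Gimap6, Icam2, Lmo2, Mmrn2, Sox18 and Stab1. These shares are descriptions of single cultures and carry no test.

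In β1-K794Q-GFP cells, 8 of the 34 genes (23.5%) were at least 4-fold apart, against 10.5% of all tested genes. They were Clec14a, Cyyr1, Mcam, Mmrn2, S1pr1, Sox17, Sox7 and Stab1. Culture B stood apart here: 10 genes (29.4%) were at least 2-fold above the mean of A and C, against 7.31% of all genes, and 3 (8.82%), namely Clec14a, Mmrn2 and Sox17, were at least 2-fold below, against 12.9%. Sox17 was the only gene at least 4-fold apart within both groups. Cd34, Egfl7 and Stab1 were 2-fold or more below in β1-WT-GFP culture C and 2-fold or more above in β1-K794Q-GFP culture B.

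**Figure D4:**
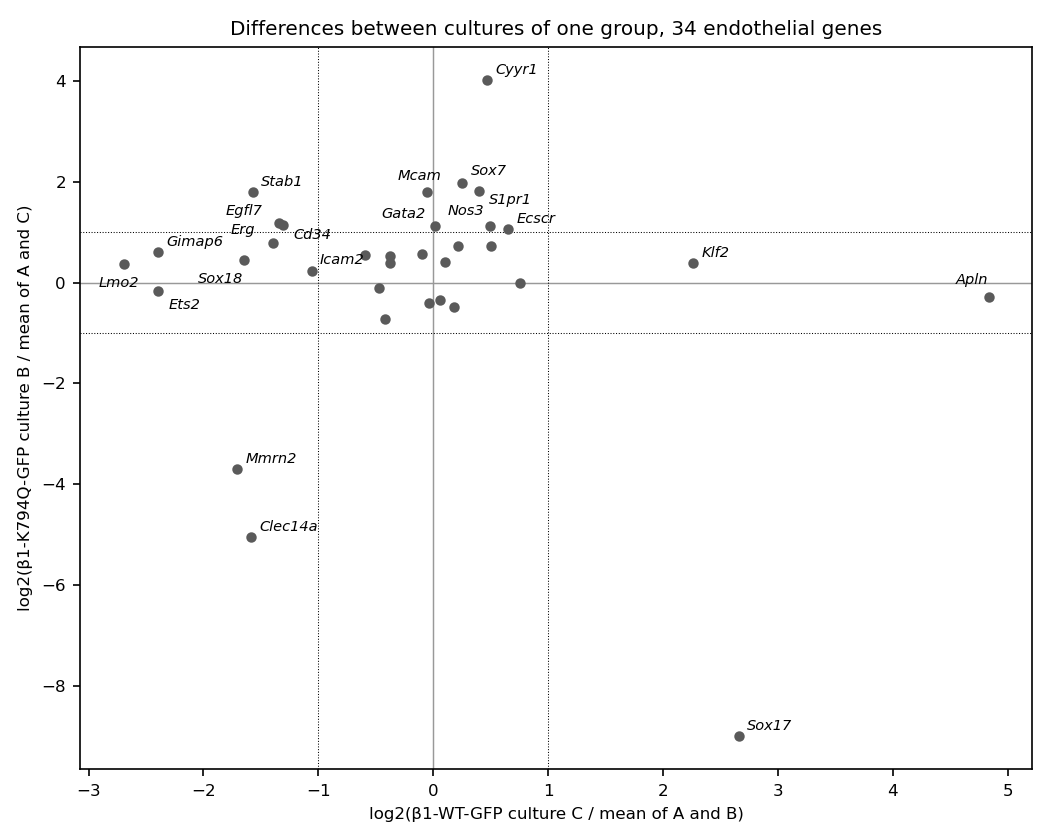
Each point is 1 of the 34 tested endothelial genes, with the log2 ratio of β1-WT-GFP culture C to the mean of A and B on the horizontal axis and that of β1-K794Q-GFP culture B to the mean of A and C on the vertical axis. Dotted lines mark 2-fold, counts of 3 or fewer are set to 3, and named genes are past 2-fold on at least 1 axis. Apln lies farthest to the right, Cyyr1 at the top, and Clec14a and Mmrn2 are low on both axes.

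Marker levels also differed between these cultures. The 8 endothelial genes outside the list summed to 5817 CPM in β1-WT-GFP culture C, against 4757 and 5368 CPM in A and B, and to 8282 CPM in β1-K794Q-GFP culture B, against 3821 and 5086 CPM in A and C. Within these sums the genes did not move together. In β1-WT-GFP culture C, Tek, Tie1 and Esam were the lowest of the 3 cultures and the other genes the highest. In β1-K794Q-GFP culture B, Cdh5 had 3985 CPM against 1408 and 1292 CPM, and Tek, Tie1, Esam and Emcn were also the highest. Kdr lay between A and C there, and Flt1, at 31.2 CPM against 141 and 457 CPM, and Vwf were the lowest. The 14 mesenchymal markers, 6 of them with 0 counts in all cultures, summed to 122 CPM in β1-WT-GFP culture C against 211 and 221 CPM in A and B. In β1-K794Q-GFP cells they summed to 29.2 to 85.5 CPM. Prrx1, a mesenchymal homeobox factor, had 183, 193 and 56.5 CPM in β1-WT-GFP cells, the largest share of the sum in each. Snai2 had 26.6, 26.3 and 38.1 CPM against 44.1, 25.5 and 83.0 CPM, and made up most of the sum in β1-K794Q-GFP cells. Prrx1 had 1 count or fewer in each β1-K794Q-GFP culture. Its log2 fold change between the groups was -10.9, with an adjusted p of 0.0198 in edgeR's quasi-likelihood test. The 9 leukocyte markers in the table summed to 48.5 to 89.7 CPM and 32.7 to 104 CPM, nearly all of it Cd68, a lysosomal protein. The 6 erythroid and megakaryocyte markers summed to 8.59 to 11.1 CPM in β1-WT-GFP cells and 5.22 to 9.45 CPM in β1-K794Q-GFP cells. Their part in the differences between cultures was not tested.

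The promoter windows of Clec14a and Apln are shown as the genes of the list, among those with a window and well above the limit in every culture, that differed most between cultures of 1 kind. The 200 bases before the most upstream annotated start lie at chr12:58269291-58269490 and chrX:48034854-48035053, both on the minus strand, and capitals mark GGAAG or CTTCC as above.
Clec14a: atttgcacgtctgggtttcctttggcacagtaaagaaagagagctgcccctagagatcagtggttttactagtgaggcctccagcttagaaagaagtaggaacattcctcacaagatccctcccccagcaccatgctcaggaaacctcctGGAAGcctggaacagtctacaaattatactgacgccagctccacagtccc
Apln: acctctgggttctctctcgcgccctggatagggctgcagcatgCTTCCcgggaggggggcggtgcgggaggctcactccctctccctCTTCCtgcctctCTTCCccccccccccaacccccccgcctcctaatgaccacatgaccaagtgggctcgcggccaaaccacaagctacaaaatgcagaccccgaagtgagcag
The first held 1 match and the second 3.

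Genes of the same kind outside the list were counted from longer lists, also chosen with earlier results of these data known. Of 47 tested further endothelial genes, 3 rose and 0 fell by both thresholds in edgeR, with 4 at an unadjusted p of at most 0.05 and again 3 calls in DESeq2. The shares of these 47 genes past both thresholds and of all tested genes were 6.38% and 5.19%. Aplnr, the apelin receptor, had 0.699, 0.499 and 0 CPM against 1.15, 15.5 and 3.44 CPM, a log2 fold change of 4.07 (SE 1.37) from low levels. Gpihbp1, which anchors lipoprotein lipase on capillary endothelium, had 16.7, 14.1 and 1.60 CPM against 70.4, 80.9 and 41.2 CPM, a log2 fold change of 2.58 (SE 0.80). Podxl, a sialomucin related to Cd34, had 220, 267 and 560 CPM against 617, 873 and 607 CPM. Its log2 fold change of 1.00 (SE 0.41) was at the threshold, and the adjusted p of the 3 genes was between 0.322 and 0.480 in edgeR's quasi-likelihood test.

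Of 39 tested further factors of the ETS, GATA, SOX, KLF, FOX and related families, 1 rose and 3 fell, where 3.48% of all tested genes rose and 1.71% fell. Foxc2, a forkhead factor of lymphatic valves, had 12.4, 13.6 and 33.7 CPM against 3.65, 4.33 and 3.87 CPM, a log2 fold change of -2.33 (SE 0.45). Gata6, a relative of Gata2, had 11.5, 8.19 and 5.70 CPM against 0.577, 0 and 0.773 CPM, a log2 fold change of -4.18 (SE 0.93). Sox4, a SoxC factor, had 278, 231 and 349 CPM against 88.0, 147 and 177 CPM, a log2 fold change of -1.06 (SE 0.31). Foxf1, which rose, was low in both groups, at 0.175, 0.499 and 0.765 CPM against 1.35, 2.95 and 2.06 CPM, a log2 fold change of 2.10 (SE 0.64). The 4 adjusted p values were between 0.136 and 0.306 in edgeR's quasi-likelihood test. The median log2 fold change was 0.14 over the further endothelial genes and -0.16 over the further factors.

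Compared per kilobase of exon, as needed between genes, the list held some of the most abundant messages of these cells. By their means in β1-WT-GFP cells, Pecam1, Cd93, Cd34, Egfl7, Nos3 and Ets2 each exceeded more than 99% of 11525 genes with a length. Among the factors Ets2, at 158 CPM per kb in β1-WT-GFP cells, was followed by Erg at 137, Sox18 at 112 and Elk3 at 110, while Ets1 was at 24.8, Klf4 at 26.8, Mef2c at 11.6 and Gata2 at 5.64. In β1-K794Q-GFP cells Ets1 was at 62.9, Klf4 at 68.6 and Mef2c at 28.5 CPM per kb, while Erg was at 107. By this scale Ets1 moved from the place 27 to the place 20 of the 36 genes and Klf4 from 26 to 19, and both stayed below Erg and Ets2.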

How the data were processed

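Total RNA of 3 β1-WT-GFP and 3 β1-K794Q-GFP cultures was sequenced after ribosomal RNA depletion (Ribo-Zero Plus). The authors aligned the reads to the mouse genome with STAR and deposited raw counts of reads per gene symbol. The submitters' processing notes name bcl2fastq 2.20.0, STAR 2.7.4a, HTSeq 0.9.1, edgeR 3.38.4 and mm10. The annotation and the strand setting are not given in the sources used here. The study describes 2 sequencing runs of these samples, and the deposited table holds 6 columns, 1 per culture.

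The analysis used R 4.3.3 and edgeR 4.0.16, with filterByExpr to drop low genes and TMM to scale libraries. Groups were compared on all 6 cultures by the two-sided quasi-likelihood F-test without a covariate, with Benjamini-Hochberg adjustment over 11608 genes. The thresholds of 2-fold and an unadjusted p of 0.05 are those of the study. Standard errors were obtained as the absolute log2 fold change over the square root of F. Nothing in the labels says how far the cultures of a group are independent, and p-values measure the spread between them, which may be technical. The functions were tested on simulated counts. Alternatives were no filter, at least 10 counts in every culture, RLE scaling, DESeq2 1.42.0, the culture letter as a block, and each culture left out. Values at 3 or fewer counts were set to 3 counts for ratios between cultures.

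Positions and exon lengths came from GENCODE M21 (GRCm38), where 35 of the 36 symbols matched directly and Eltd1 matched through a synonym. Promoter windows came from RefSeq (GRCm38.p6). Every gene of the list is named, and of the other lists at most 4 genes past both thresholds, by smallest p, and markers of other cell types with a mean of at least 10 CPM in a group. Cldn5 is named in addition because the study reported it. The genes of the list and the other lists were chosen with earlier results of these data known. Exons of 10 of the 36 genes, and of 0 of the 4 that rose, overlap an exon on the other strand.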

Additional observations from a re-analysis of the deposited data

How the results depend on the processing

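The calls of Ets1, Klf4 and Mef2c were kept under every alternative, and that of Cd93 under all but the one without β1-K794Q-GFP culture B. The number of genes past both thresholds was 603 in all, and 916 without the filter on low counts. It was 425 at 10 counts or more in every culture and 605 with RLE scaling. DESeq2 gave 695, and the culture letter as a replicate block gave 571. With each culture left out the number was 501 to 992, the highest without β1-WT-GFP culture C and 942 without β1-K794Q-GFP culture B. Of the list, 4 to 6 genes were called in all settings. The number lower was 1 without the filter and 1 with the replicate block (Cyyr1 in both), and 0 to 3 with a culture left out. The 3 were Stab1, Sox7 and Cyyr1, without β1-K794Q-GFP culture B. The further endothelial genes had 1 to 5 calls with a culture left out, the fewest without β1-WT-GFP culture B and the most without C, and the further factors 2 at 10 counts or more in every culture. That filter gave no value for Cyyr1 and Sox17. The causes were not tested. The letters do not mark pairs by the labels. Deviations of log2 CPM from the group mean, over all tested genes, correlated at 0.095, 0.055 and 0.095 between same-letter cultures. Between cultures of different letters these deviations correlated at -0.15 to 0.095. The replicate block turned the log2 fold changes of Mcam (-0.26), Mmrn2 (-0.18), Sox18 (0.084), Klf2 (0.27) and Gimap6 (0.021), none past both thresholds.

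With each culture left out, the log2 fold change of 17 genes, none past both thresholds with all cultures, took either sign. It ran from -0.13 to 0.22 for Pecam1, -0.34 to 0.42 for Cd34, -0.11 to 0.33 for Icam2, -0.82 to 0.42 for Mcam, -0.51 to 0.83 for Mmrn2 and -0.42 to 0.38 for Egfl7. It ran from -0.30 to 0.51 for Ets2, -0.092 to 0.71 for Lmo2, -0.49 to 0.22 for Gata2, -1.33 to 0.0034 for Sox7, -0.16 to 2.37 for Sox17 and -0.38 to 0.26 for Sox18. It ran from -0.59 to 1.00 for Klf2, -0.25 to 0.58 for Nos3, -0.40 to 0.84 for S1pr1, -0.34 to 3.56 for Apln and -0.72 to 0.058 for Gimap6. With 3 cultures a group, values well above their standard error, such as those of Elk3, Hhex and Cyyr1, still missed the test, and single low genes such as Cyyr1 and Sox17 rest on few counts in some cultures.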
